A study of Homo sapiens with 6 samples.

Results

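The EGF receptor family and its ligands were followed here as 9 genes, namely the ligand genes EREG, AREG, TGFA, HBEGF and BTC and the receptor genes EGFR, ERBB2, ERBB3 and ERBB4. They were taken by symbol from a table of 60664 Ensembl genes. All 9 were found, and all 9 had enough counts to be among the 17638 genes tested. In cells that overexpressed GPT1, 6 of the 9 genes were lower than in control cells and 0 were higher, where 14.6% of all genes tested were lower and 25.1% were called in either direction. The lower genes include BTC, which was at the limit of detection in the GPT1 libraries. The ligand genes EREG and AREG stood at 0.20 and 0.22 of their control level, and the receptor genes EGFR and ERBB3 fell by less.

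EGF family ligands are made as membrane-anchored precursors, which metalloproteases of the ADAM family cut at the cell surface to release the soluble factor. Binding of a ligand pairs the receptor chains and switches on their kinases, which feed the RAS, RAF, MEK and ERK cascade and the PI3K and AKT branch. ERBB2 has no known ligand of its own and serves as a partner for the other receptors, and ERBB3 has little kinase activity and works through such a partner. In the intestinal epithelium these factors drive growth and repair, and EREG and AREG have been studied as markers of the response of colorectal cancers to antibodies against EGFR.

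mRNA was sequenced in 6 libraries from cells labelled HCT8, which is an established line from a human ileocecal carcinoma. 3 libraries came from cells given a plasmid that overexpresses GPT1, labelled with the genotype GPT1 overexpression, and 3 from cells given a control plasmid, labelled WT. GPT1 is an alanine aminotransferase of the cytosol whose gene has the symbol GPT, and the series asked which signalling pathway it regulates in colorectal cancer. The labels name neither the promoter of the plasmid nor the time after transfection, nor do they say whether the cells were a pool or 1 clone, or whether the libraries came from separate cultures, so the p-values take account of library-to-library spread alone, some or all of which may be technical.

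GPT had 105529, 96886 and 106063 counts in the GPT1 libraries, against 9, 14 and 3 in the control libraries, as the labels state. Total counts were 30370654 to 31513656 in the GPT1 libraries and 21255655 to 32487217 in the control libraries, control replicate 3 being the shallowest. CPM below are counts scaled by library sizes with TMM factors, and changes are log2 fold changes of GPT1 overexpression over control with their SE, from edgeR's quasi-likelihood test with Benjamini-Hochberg adjustment over all tested genes and a threshold of 0.05. By that test 25.1% of all genes tested were called, 14.6% lower and 10.5% higher. Of a list of epithelial markers, 9 of 10 tested genes fell. The median log2 fold change of the list was -1.98, near those of EREG (-2.32) and AREG (-2.16) below. The list's summed level was 570.4 to 629 CPM in the GPT1 libraries and 931 to 1055 CPM in the control libraries. KRT8 (-0.59) and KRT18 (-0.61), which made up most of that sum, fell less than the list's median. The intestinal transcription factor gene CDX2 was present in both groups at 45.3 ± 3.56 CPM in the GPT1 libraries and 41.7 ± 4.47 CPM in the control libraries (SD, n = 3 each; not called), whereas the colon markers KRT20, CDX1 and CEACAM5 were at or near 0 in all 6 libraries. Markers of neural and kidney-derived lines were also lower, at 618 to 700.4 CPM summed in the GPT1 libraries and 1234 to 1482 CPM in the control libraries, with 4 of 8 tested genes (NEFM, NEFL, IRS4 and MAP2) lower. IRS4, known for its high level in the embryonic kidney line HEK293, had 404 ± 36.01 CPM in the GPT1 libraries and 813 ± 77.0 CPM in the control libraries, so that the markers do not all go with the labelled line. Leukocyte markers summed to 3.44 to 3.98 CPM in the GPT1 libraries and 3.86 to 4.80 CPM in the control libraries, with 1 of 3 tested genes lower and CD3E and MS4A1 at 0. Fibroblast markers summed to 65.8 to 68.4 CPM in the GPT1 libraries and 52.2 to 56.3 CPM in the control libraries. Of these 3 of 6 tested genes were higher, and THY1 and FAP were at 0. Most of the fibroblast sum was ACTA2 and COL1A1, while COL1A2, DCN and PDGFRA had too few counts to be tested. Endothelial markers summed to 39.0 to 46.3 CPM and 46.2 to 54.9 CPM in the same order, with 0 of 1 tested gene called. Nearly all of the endothelial sum was EGFL7 (41.9 ± 4.07 CPM in the GPT1 libraries and 50.0 ± 4.59 CPM in the control libraries). The other endothelial markers, PECAM1, CDH5, VWF, KDR, TEK, CLDN5 and ERG, were at or near 0 in all 6 libraries. The part of these differences in the results below was not tested, and in bulk RNA fewer cells of a kind and less RNA per cell cannot be told apart.

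To ask how the ligands differed, each ligand gene was compared between the groups. EREG (ENSG00000124882; GRCh38 chromosome 4, 74365143 to 74388751, plus strand) encodes epiregulin, a ligand of EGFR and ERBB4. It had 2.22, 2.62 and 2.32 CPM in the GPT1 libraries, against 11.2, 12.6 and 11.98 CPM in the control libraries. The groups lay far apart and each was tight, with coefficients of variation of 8.75% in the GPT1 libraries and 6.22% in the control libraries. The log2 fold change was -2.32 ± 0.14 (SE; 95% interval -2.63 to -2.01; adjusted p = 8.2e-06), and 58 was its rank from the most negative of 17638 genes.

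AREG (ENSG00000109321; chromosome 4, 74445134 to 74455009, plus strand) encodes amphiregulin, a ligand of EGFR with an affinity for heparin. It had 2.80, 3.05 and 2.39 CPM in the GPT1 libraries and 10.5, 12.9 and 13.6 CPM in the control libraries. Every GPT1 library was again far below every control library, and control replicate 1 was the lowest of its group. The log2 fold change was -2.16 ± 0.16 (SE; 95% interval -2.51 to -1.82; adjusted p = 1.9e-05). The ratio of EREG to AREG moved little: its mean log2 value was -0.20 ± 0.15 in the GPT1 libraries and -0.04 ± 0.14 in the control libraries (SD, n = 3 each; exact two-sided permutation p = 0.2, adjusted over 4 ratios p = 0.2, where 3 against 3 cannot go below 0.1).

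EREG and AREG are neighbours on chromosome 4, their starts 80.0 kb apart on the same strand. The 250 bases upstream of each start are shown because these 2 genes fell together and by like amounts. The sequences are from RefSeq on GRCh38.p14, plus strand, EREG at chr4:74364895-74365144 and AREG at chr4:74444886-74445135, with matches to any of 5 searched motifs in capitals.
EREG: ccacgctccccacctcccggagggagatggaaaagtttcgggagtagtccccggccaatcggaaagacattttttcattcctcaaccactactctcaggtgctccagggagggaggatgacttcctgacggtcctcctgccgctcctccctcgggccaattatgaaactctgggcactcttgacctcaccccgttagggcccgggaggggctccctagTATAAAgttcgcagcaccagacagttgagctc
AREG: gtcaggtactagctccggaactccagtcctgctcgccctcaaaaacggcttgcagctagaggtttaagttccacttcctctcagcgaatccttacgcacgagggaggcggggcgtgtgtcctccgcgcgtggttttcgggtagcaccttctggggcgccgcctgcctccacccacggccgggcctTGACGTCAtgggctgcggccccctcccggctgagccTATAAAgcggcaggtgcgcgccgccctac
Both hold TATAAA, the core of a TATA box, which begins 32 bases before the start in EREG and 29 bases before it in AREG. Of 34941 promoter windows of that length, 10.8% hold TATAAA on either strand. AREG also holds TGACGT, the core of the site bound by CREB and ATF factors, once on each strand in overlapping matches, and 7.09% of windows hold it. Neither window holds TGANTCA (an AP-1 motif, in 6.59% of windows), CACGTG (an E-box, in 6.32%) or CCGGAAG (an ETS motif, in 8.48%). These are matches of letters only.

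BTC (ENSG00000174808; chromosome 4, 74744759 to 74794686, minus strand) encodes betacellulin, a ligand of EGFR and ERBB4, and was barely detected. It had 3, 0 and 3 counts in the GPT1 libraries and 19, 15 and 17 counts in the control libraries. The groups did not overlap, but the GPT1 values sat at the limit of detection, since 3 counts correspond to 0.0952 to 0.0988 CPM in these libraries. BTC passed the filter on low counts only through its control libraries, so little but a lower call was open to it. The ratio of summed counts, scaled by library size, was 0.110 (exact 95% interval 0.0384 to 0.255, for counting error alone). The fitted change was -3.13 ± 0.60 (SE; adjusted p = 0.0063), and with a filter of at least 1 CPM in 3 libraries BTC was not tested.

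TGFA (ENSG00000163235; chromosome 2, 70447280 to 70554193, minus strand) encodes transforming growth factor alpha, a ligand of EGFR. It had 3.19, 4.33 and 3.83 CPM in the GPT1 libraries and 6.69, 6.38 and 5.87 CPM in the control libraries. The groups did not overlap, and the fall was smaller than that of EREG (log2 fold change -0.74 ± 0.15 SE, adjusted p = 0.0087). The log2 ratio of EREG to TGFA averaged -0.65 ± 0.12 in the GPT1 libraries and 0.91 ± 0.16 in the control libraries, a difference of -1.57 (SD, n = 3 each; exact two-sided permutation p = 0.1, the smallest possible; adjusted over 4 ratios p = 0.2). Per kilobase of transcript, EREG was below TGFA in all 3 GPT1 libraries (0.48 to 0.57 against 0.74 to 1.004 CPM per kb) and above it in all 3 control libraries (2.42 to 2.74 against 1.36 to 1.55 CPM per kb).

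HBEGF (ENSG00000113070; chromosome 5, 140332843 to 140346631, minus strand), which encodes the heparin-binding ligand of EGFR and ERBB4, did not pass the test. It had 6.50, 5.48 and 7.32 CPM in the GPT1 libraries and 8.34, 7.53 and 8.83 CPM in the control libraries. All GPT1 libraries were below the control libraries, but GPT1 replicate 3 and control replicate 2 nearly met. The log2 fold change was -0.35 ± 0.15 (SE; 95% interval -0.67 to -0.03; adjusted p = 0.096). After correction of each library for transcript length and GC content, HBEGF passed (-0.44, adjusted p = 0.022; with the replicate number as a block as well, -0.45, adjusted p = 0.016).

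**Figure D1:**
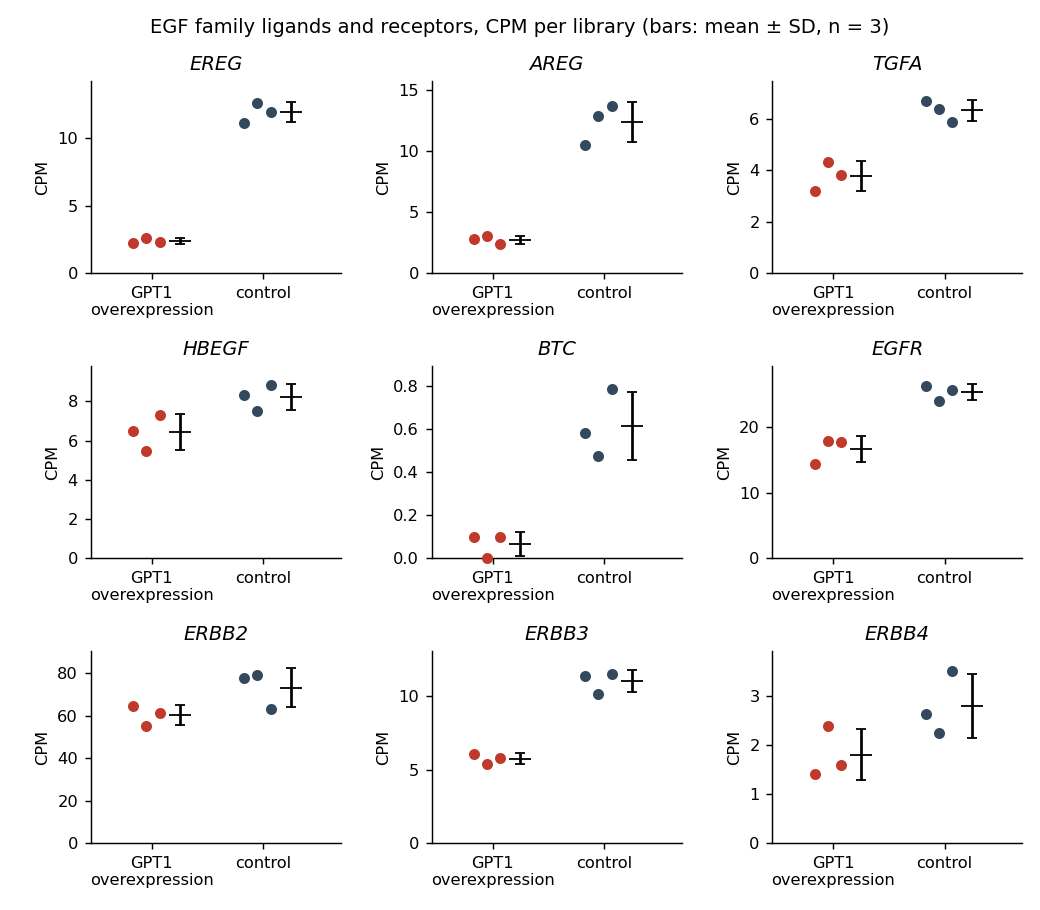
CPM of the 9 family genes in each library on a linear axis from 0, GPT1 overexpression in red to the left of control in dark blue, with the mean and SD beside the points (n = 3 each). The GPT1 points of EREG (2.22 to 2.62 CPM) and AREG (2.39 to 3.05 CPM) sit far below their control points, whereas those of ERBB2 and ERBB4 overlap with the controls.

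Because HBEGF held its level better than EREG and AREG, the make-up of the ligand transcripts differed between the groups. The 5 ligand genes summed to 14.8, 15.5 and 15.96 CPM in the GPT1 libraries and 37.3, 39.9 and 41.1 CPM in the control libraries. Of the ligand sum per kilobase of transcript, HBEGF made up 42.6% ± 5.85 in the GPT1 libraries and 19.6% ± 2.03 in the control libraries (SD, n = 3 each). AREG made up 35.0% ± 4.56 in the GPT1 libraries and 56.2% ± 3.19 in the control libraries. EREG held 8.17% ± 0.70 and TGFA 13.9% ± 2.01 in the GPT1 libraries, against 14.6% ± 0.83 for EREG and 8.36% ± 1.21 for TGFA in the control libraries. Every GPT1 library thus had a larger share of HBEGF and TGFA, and a smaller share of EREG and AREG, than every control library.

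Per kilobase of each gene's longest transcript, the order of the ligand levels differed between the groups. In the GPT1 libraries HBEGF (2.70 ± 0.39 CPM per kb) and AREG (2.21 ± 0.27) stood first with overlapping values, followed by TGFA (0.88 ± 0.13), EREG (0.52 ± 0.05) and BTC (0.023 ± 0.020). In the control libraries AREG led at 9.96 ± 1.32 CPM per kb, followed by HBEGF (3.45 ± 0.28), EREG (2.58 ± 0.16), TGFA (1.47 ± 0.10) and BTC (0.22 ± 0.06), with no overlap between neighbours in this order (SD, n = 3 each). The longest transcript has 4619 bases for EREG and 1240 bases for AREG.

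**Figure D2:**
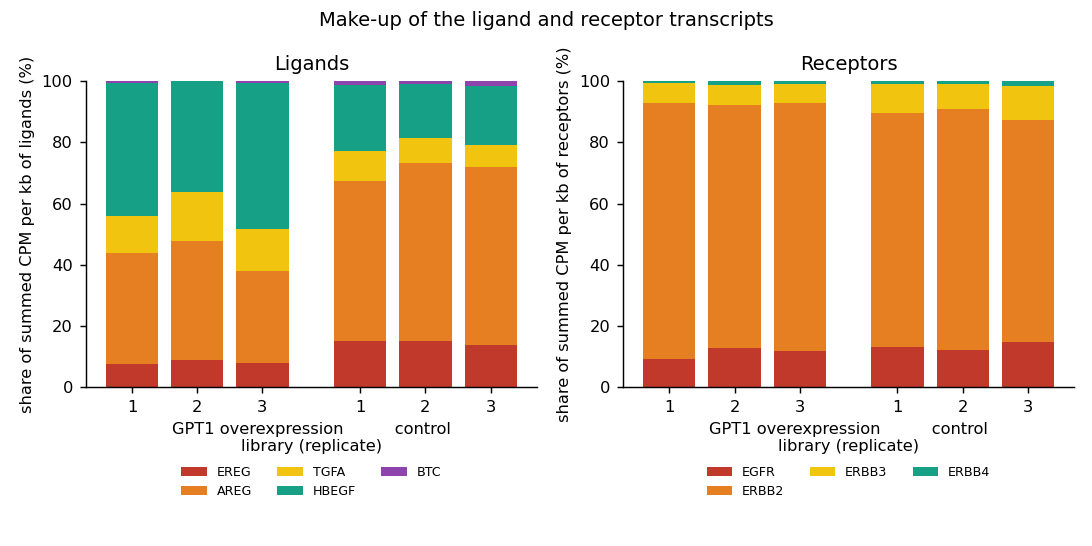
Share of each gene in the summed CPM per kb of the 5 ligands (left) and of the 4 receptors (right), as stacked bars for each library, the 3 GPT1 libraries to the left of the 3 control libraries. AREG takes 30.0% to 38.9% of the ligand sum in GPT1 libraries and 52.5% to 58.1% in control libraries, while ERBB2 takes most of the receptor sum in every library.

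The receptor genes were then compared in the same way. EGFR (ENSG00000146648; chromosome 7, 55019021 to 55211628, plus strand), the receptor of all 5 ligands, had 14.4, 17.97 and 17.8 CPM in the GPT1 libraries and 26.4, 24.1 and 25.7 CPM in the control libraries. The groups did not overlap, with GPT1 replicate 1 the lowest. The log2 fold change was -0.60 ± 0.12 (SE; 95% interval -0.87 to -0.33; adjusted p = 0.0080). With the correction for length and GC content the change was -0.38 (adjusted p = 0.0037).

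ERBB3 (ENSG00000065361; chromosome 12, 56076799 to 56103505, plus strand), a receptor of the neuregulins and the main docking partner for PI3K, fell the most among the receptors. It had 6.08, 5.38 and 5.79 CPM in the GPT1 libraries and 11.4, 10.1 and 11.5 CPM in the control libraries. Both groups were tight and well apart (log2 fold change -0.93 ± 0.13 SE, 95% interval -1.21 to -0.65, adjusted p = 0.0011). The log2 ratio of ERBB3 to EGFR averaged -1.53 ± 0.26 in the GPT1 libraries and -1.21 ± 0.04 in the control libraries, and the groups overlapped (SD, n = 3 each; exact two-sided permutation p = 0.2, adjusted p = 0.2), so that a larger fall of ERBB3 than of EGFR was not shown.

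ERBB2 (ENSG00000141736; chromosome 17, 39687914 to 39730426, plus strand) had 64.6, 55.1 and 61.3 CPM in the GPT1 libraries and 77.6, 79.4 and 63.0 CPM in the control libraries. The means differed, but GPT1 replicate 1 lay above control replicate 3. ERBB2 did not pass (log2 fold change -0.28 ± 0.11 SE, 95% interval -0.52 to -0.04, adjusted p = 0.080). Without control replicate 3, the shallowest library, it did (-0.36, adjusted p = 0.012), and so it did with the correction for length and GC content (-0.23, adjusted p = 0.026). ERBB2 overlaps MIEN1 and PGAP3 on the opposite strand, and without a stated strand setting of the counting the reads of the overlaps cannot be told apart. The log2 ratio of ERBB2 to EGFR averaged 1.85 ± 0.28 in the GPT1 libraries and 1.52 ± 0.22 in the control libraries (SD, n = 3 each; exact two-sided permutation p = 0.2, adjusted p = 0.2).

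ERBB4 (ENSG00000178568; chromosome 2, 211375717 to 212538841, minus strand), a receptor of neuregulins and of some EGF-like ligands, was low. It had 44, 73 and 49 counts in the GPT1 libraries and 86, 71 and 76 counts in the control libraries, or 1.42 to 2.39 and 2.25 to 3.51 CPM. GPT1 replicate 2 lay within the control values. It did not pass (log2 fold change -0.62 ± 0.24 SE, 95% interval -1.15 to -0.08, adjusted p = 0.084). It passed without GPT1 replicate 2 (-0.85, adjusted p = 0.030), without control replicate 2 (-0.75, adjusted p = 0.0485) or with no filter on low counts (-0.62, adjusted p = 0.029), and stood at -0.17 (adjusted p = 0.488) with the correction for length and GC content.

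The order of receptor levels was the same in both groups. Per kilobase, ERBB2 was the highest, with 12.2 ± 0.97 CPM in the GPT1 libraries and 14.9 ± 1.82 in the control libraries. EGFR followed with 1.70 ± 0.20 in the GPT1 libraries and 2.59 ± 0.12 in the control libraries, ERBB3 with 0.97 ± 0.06 and 1.86 ± 0.13, and ERBB4 with 0.15 ± 0.04 and 0.23 ± 0.05, in the same order of groups (SD, n = 3 each). Neighbours in this order did not overlap within either group. The 4 receptors summed to 86.5, 80.9 and 86.5 CPM in the GPT1 libraries and 118, 116 and 104 CPM in the control libraries.

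Over the family, 4 of 5 ligand genes and 2 of 4 receptor genes were lower, 66.7% of the members beside 14.6% lower, or 25.1% called either way, among all genes tested. In 7 of the 9 genes every GPT1 library lay below every control library, as in 22.2% of all genes tested, while the groups did not overlap in either direction in 43.4%. The median log2 fold change was -0.74 over the 9 members and -0.02 over all genes tested. A fall of 2-fold or more was seen in 3 ligand genes and 0 receptor genes. BTC is counted among these 3 and among the lower genes. It passed the filter on low counts only through its control libraries, so little but a lower call was open to it. The 9 genes were chosen with earlier results of these data known, so that these shares describe them. All 6 calls held when each library was left out in turn, while the number of all genes called, 4430, came to 1586 without GPT1 replicate 1, 1443 without GPT1 replicate 3 and 2565 without control replicate 1. With the correction for length and GC content 8 members were lower and 0 higher, and among all genes 2612 were lower and 3504 higher, beside 2572 and 1858 without it.

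**Figure D3:**
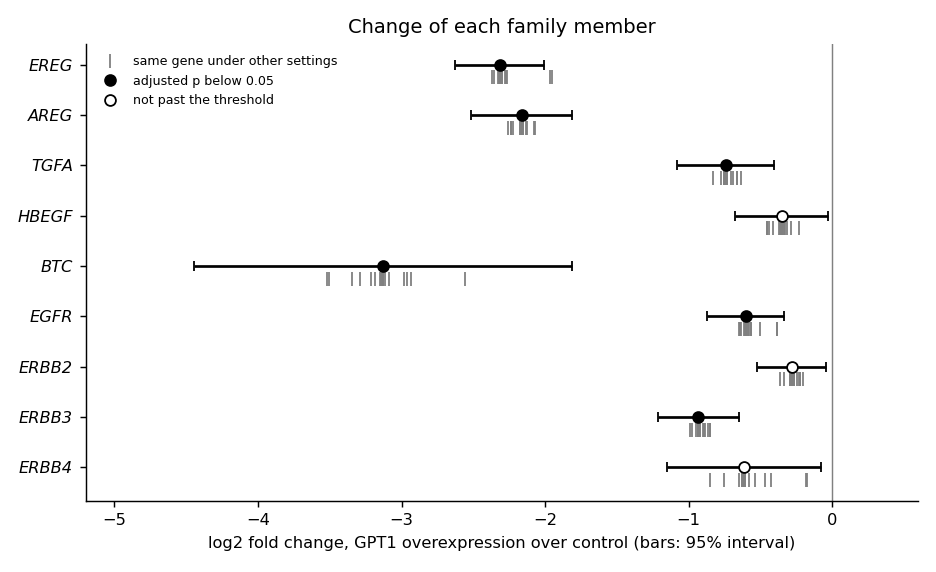
Log2 fold change of GPT1 overexpression over control for each family gene (points, filled where the adjusted p is below 0.05) with 95% intervals, and grey ticks for the same gene under the other settings tried. EREG, AREG and BTC sit beyond -2, the other 6 genes between -0.93 and -0.28, and all 170 ticks lie below 0.

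The 3 ligand genes that fell furthest lie in a cluster on chromosome 4, so the genes within 500 kb of EREG were examined. Of 18 other genes there, 7 were tested, of which 4 were lower and 1 was higher, beside 14.6% and 10.5% of all genes tested. The 4 include AREG and BTC, whose falls led to the choice of this stretch. A regional excess therefore cannot be read from this count. Besides AREG and BTC, the lower genes were those of the neutrophil-attracting chemokines CXCL5 (26.2 ± 2.32 CPM in the GPT1 libraries and 63.3 ± 13.0 CPM in the control libraries; log2 fold change -1.27 ± 0.15 SE, adjusted p = 0.00040) and CXCL1 (1.38 ± 0.28 and 2.19 ± 0.12 CPM; -0.67 ± 0.21, adjusted p = 0.039). CXCL1 was named after its value was seen, and it did not pass with DESeq2 (adjusted p = 0.080) or without GPT1 replicate 1, GPT1 replicate 3, control replicate 1 or control replicate 2 (adjusted p up to 0.143). CXCL2 (-0.15 ± 0.32, adjusted p = 0.761) and CXCL3 (-0.28 ± 0.30, adjusted p = 0.501), which are close in sequence to CXCL1 and may share reads with it, did not pass. MTHFD2L, a mitochondrial folate enzyme gene that lies between the chemokine genes and EREG, was higher at 17.8 ± 0.59 CPM in the GPT1 libraries and 13.1 ± 1.06 CPM in the control libraries (0.45 ± 0.12, adjusted p = 0.021), but not without GPT1 replicate 1, GPT1 replicate 3 or control replicate 1 (adjusted p up to 0.078), and it stood at 0.74 with the correction for length and GC content. EPGN, the epigen gene next to EREG, had 0 counts in all 6 libraries.

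**Figure D4:**
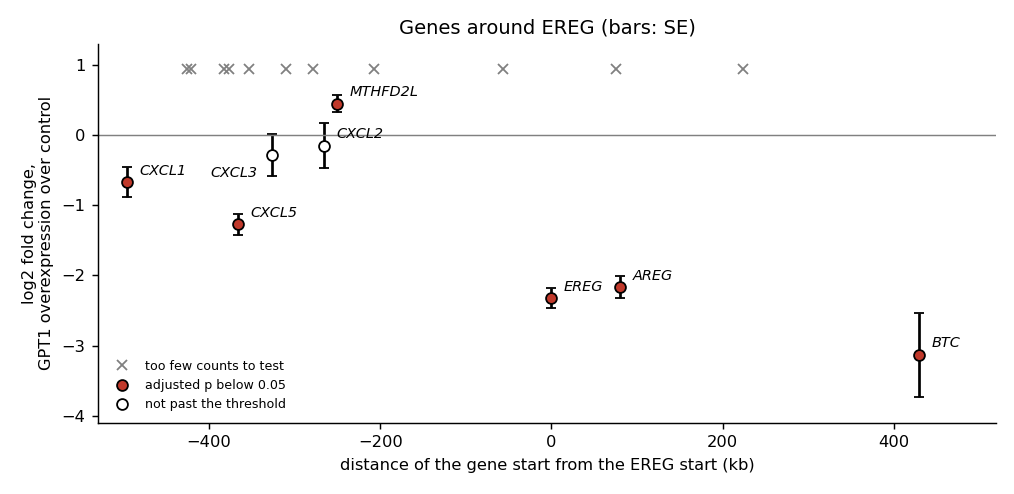
Log2 fold change with SE of the tested genes within 500 kb of EREG against the distance of their start from that of EREG in kb, and crosses at the top for genes with too few counts to test. EREG, AREG at 80.0 kb and BTC at 430 kb are the lowest points, and MTHFD2L at -251 kb is above 0.

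The genes most like EREG and EGFR over the 6 libraries were sought among 10992 protein-coding genes of at least 5 CPM on average, by the root mean square difference of log2 CPM centred on each gene's mean. Closest to EREG were KLK6, a secreted serine protease gene (0.18), LCN2, which encodes a siderophore-binding protein (0.22), and VIL1, which encodes the microvillus protein villin (0.22). Closest to EGFR were PODXL, a sialomucin gene (0.032), CEMIP2, a membrane protein gene (0.033), and KIAA1217 (0.040). Since likeness was taken over the same 6 libraries, a fall near that of EREG or EGFR was fixed by the choice, and the log2 fold changes, from -2.51 to -1.96 for the first 3 and from -0.61 to -0.57 for the others, are given as a description. Without GPT1 replicate 1, GPT1 replicate 3 or control replicate 1, KIAA1217 did not pass (adjusted p up to 0.070).

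Of the 6 remaining ligand genes of the family 3 could be tested. Of these 1 was lower and 0 were higher, beside 14.6% and 10.5% of all genes tested. NRG4, which encodes a ligand of ERBB4, was lower at 1.39 ± 0.25 CPM in the GPT1 libraries and 2.44 ± 0.50 CPM in the control libraries (log2 fold change -0.79 ± 0.22 SE, adjusted p = 0.028), a call lost without GPT1 replicate 1, GPT1 replicate 3 or control replicate 3 (adjusted p up to 0.102), and its change was -0.53 with the correction for length and GC content. EGF, the founding member and a ligand of EGFR, had 3.48 ± 0.22 CPM in the GPT1 libraries and 3.01 ± 0.83 CPM in the control libraries (0.23 ± 0.20, adjusted p = 0.407). NRG2, a neuregulin gene, had 6.50 ± 0.42 CPM in the GPT1 libraries and 6.02 ± 1.13 CPM in the control libraries (0.10 ± 0.16, adjusted p = 0.654). NRG1, NRG3 and EPGN had too few counts to be tested.

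Among genes that process the ligand precursors, 7 of 14 tested were lower and 2 higher, beside 14.6% and 10.5% of all genes tested. The lower genes numbered 3 without GPT1 replicate 1, 2 without GPT1 replicate 3 and 4 without control replicate 1, with 1 higher each time. Lower calls over all genes went from 2572 to 941, 830 and 1574 without the same libraries, in that order. With the correction for length and GC content 5 genes of the list were lower and 4 higher, beside 2612 and 3504 over all genes. ADAM17, the main sheddase of AREG, EREG, TGFA and HBEGF, was lower at 36.3 ± 3.23 CPM in the GPT1 libraries and 48.0 ± 4.79 CPM in the control libraries (log2 fold change -0.40 ± 0.11 SE, adjusted p = 0.026), as was ADAM10, which cleaves betacellulin and EGF (-0.67 ± 0.17, adjusted p = 0.020). Both were named after their values were seen, and both calls were lost without GPT1 replicate 1 or GPT1 replicate 3 (adjusted p up to 0.119), that of ADAM17 also without control replicate 1 (0.083). With the correction for length and GC content ADAM17 stood at -0.01 (adjusted p = 0.922) and ADAM10 at -0.16 (adjusted p = 0.112). By the rule for named genes, ADAM9, another membrane protease gene (-0.78 ± 0.16), TIMP3, an inhibitor of ADAM17 (-0.73 ± 0.10), and RHBDF2 (-0.42 ± 0.10), which encodes the inactive rhomboid that brings ADAM17 to the surface, fell. FRMD8, whose product stabilises the complex of ADAM17 and inactive rhomboids, rose to 39.2 ± 3.32 CPM in the GPT1 libraries, against 25.3 ± 2.53 CPM in the control libraries (0.63 ± 0.12, adjusted p = 0.0053). RHBDF2 did not pass without GPT1 replicate 3 or control replicate 1 (adjusted p up to 0.075).

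A further list held receptor inhibitors, phosphatases and genes of receptor degradation. Of these 7 of 24 tested were lower and 0 higher, beside 14.6% and 10.5% of all genes tested. The lower genes numbered 3 without GPT1 replicate 1 and 4 without GPT1 replicate 3. Lower calls over all genes fell from 2572 to 941 and 830 in these settings. ERRFI1, a feedback inhibitor that binds the EGFR kinase, was at 33.3 ± 2.12 CPM in the GPT1 libraries and 59.2 ± 7.40 CPM in the control libraries (log2 fold change -0.83 ± 0.11 SE, adjusted p = 0.0011). CBLC, an epithelial ubiquitin ligase gene of the CBL family, was low and fell (-1.62 ± 0.23), and so did the tyrosine phosphatase genes PTPN12 (-0.66 ± 0.14) and PTPRK (-0.56 ± 0.12). PTPRK did not pass without GPT1 replicate 1 (adjusted p = 0.054), and it stood at -0.34 with the correction for length and GC content.

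Of the adaptors at the receptors, 7 of 21 tested were lower and 0 higher, beside 14.6% and 10.5% of all genes tested. Without GPT1 replicate 1 or without GPT1 replicate 3 the lower adaptors numbered 1. Lower calls over all genes went from 2572 to 941 and 830 there. GRB7, an adaptor of ERBB2 whose gene lies beside it, had 0.66 ± 0.15 CPM in the GPT1 libraries and 2.12 ± 0.11 CPM in the control libraries (log2 fold change -1.68 ± 0.23 SE, adjusted p = 0.0012). SOS1, the exchange factor that loads RAS (-0.60 ± 0.15), the SH2 adaptor gene NCK1 (-0.54 ± 0.14) and PTPN11, which encodes the phosphatase SHP2 (-0.56 ± 0.15), fell as well. These 3 calls were lost without GPT1 replicate 1 or GPT1 replicate 3 (adjusted p up to 0.089). With the correction for length and GC content SOS1 stood at -0.13 (adjusted p = 0.197), NCK1 at -0.25 and PTPN11 at -0.29.

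In the RAS, RAF, MEK and ERK cascade 8 of 19 tested genes were lower and 1 was higher, beside 14.6% and 10.5% of all genes tested. The lower genes numbered 1 without GPT1 replicate 1 or without GPT1 replicate 3, with 0 higher. They numbered 4 without control replicate 1, and 4 with the correction for length and GC content and the replicate block together. Lower calls over all genes went from 2572 to 941, 830, 1574 and 2304 in these settings, in that order. The RAS-inactivating genes NF1 (log2 fold change -0.77 ± 0.16 SE) and RASA1 (-0.62 ± 0.16) were lower. HRAS was higher at 71.2 ± 7.05 CPM in the GPT1 libraries and 52.4 ± 4.01 CPM in the control libraries (0.44 ± 0.10, adjusted p = 0.014). Without GPT1 replicate 1 or GPT1 replicate 3 the calls of HRAS and RASA1 were lost (adjusted p up to 0.086), and NF1 stood at -0.37 with the correction for length and GC content.

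In the PI3K, AKT and STAT branch 6 of 17 tested genes were lower and 2 higher, beside 14.6% and 10.5% of all genes tested. With the correction for length and GC content 3 were lower and 5 higher (2 and 4 with the replicate block as well). The balance over all genes turned too, from 2572 lower and 1858 higher to 2612 and 3504 (2304 and 2951 with the block). The lower genes of the branch numbered 2 without GPT1 replicate 1, GPT1 replicate 3 or control replicate 1. Lower calls over all genes numbered 941, 830 and 1574 there. The transcription factor gene STAT5A was low and fell, with 0.38 ± 0.18 CPM in the GPT1 libraries and 1.32 ± 0.10 CPM in the control libraries (log2 fold change -1.78 ± 0.34 SE, adjusted p = 0.0062). AKT1, a kinase gene of this branch, was higher at 258 ± 11.8 CPM in the GPT1 libraries and 198 ± 19.0 CPM in the control libraries (0.38 ± 0.09, adjusted p = 0.014). INPP5D, a phosphatase gene that opposes PI3K, rose as well (0.83 ± 0.16). The call of AKT1 was lost without GPT1 replicate 1 or GPT1 replicate 3 (adjusted p up to 0.066).

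ERK-responsive and feedback genes were the list with the largest share of falls among the 7 pathway lists, with 15 of 22 tested lower, 0 higher and a median log2 fold change of -0.61. Between 12 and 16 of them were lower with each library left out in turn. Among all genes tested 14.6% were lower and 10.5% higher, with a median of -0.02. DUSP6, a phosphatase of ERK, had 1.76 ± 0.43 CPM in the GPT1 libraries and 8.80 ± 1.32 CPM in the control libraries, a change as large as that of EREG (-2.32 ± 0.20 SE, adjusted p = 5.4e-05). The other genes of this list named by adjusted p, the growth factor response genes PHLDA1 (-1.64 ± 0.14), IER3 (-1.23 ± 0.12) and JUN (-1.13 ± 0.09), fell as well. By contrast FOSL1, an AP-1 subunit named after its value was seen, stood at 7.79 and 5.86 CPM on average in the GPT1 and control libraries (0.41 ± 0.14, adjusted p = 0.053), and it passed with RLE or upper-quartile scaling, with the filter of at least 1 CPM, or without control replicate 1 (adjusted p down to 0.039). Over the 7 lists 51 of 120 tested genes were lower and 5 higher, beside 14.6% and 10.5% of all genes tested. In all 24 passed without GPT1 replicate 1 or without GPT1 replicate 3. Calls over all genes fell from 4430 to 1586 and 1443 there.

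**Figure D5:**
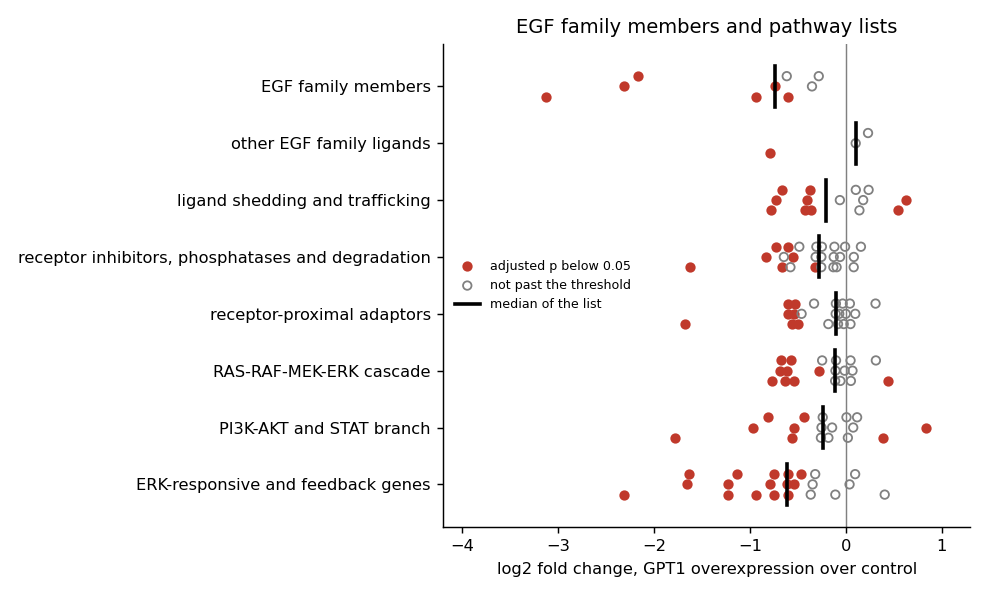
Log2 fold change of GPT1 overexpression over control for each tested gene of the family and of 7 pathway lists (red where the adjusted p is below 0.05, open circles otherwise), with a black bar at each list's median. The medians of the family (-0.74) and of the ERK-responsive genes (-0.61) lie furthest to the left, and those of the adaptors (-0.11) and of the RAS to ERK cascade (-0.11) lie near 0.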

How the data were processed

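Libraries of mRNA were prepared from Trizol-extracted RNA of HCT8 cells, per the labels' protocols. The authors deposited whole-number read counts for each Ensembl gene and sample, without normalization. HISAT2 2.0 and GRCh38 are named in the submitters' processing notes, while the tool, annotation and strandedness of the counting were not given in the sources used here. Coordinates and transcript lengths came from GENCODE 29 tables. Symbols came from a table of gene names, filled from GENCODE 29 where it had none, with 12 of 60664 identifiers left without a symbol. Column names matched each of the 6 columns to a sample.

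The main test was edgeR 4.0.16 in R 4.3.3 (filterByExpr, TMM, glmQLFit and glmQLFTest, two-sided, Benjamini-Hochberg). SE were derived from the fold change and its F statistic. Marker sums use library totals without TMM factors. Log2 ratios between members add 0.5 to each count. The fit was tested on simulated counts. Replicate pairs differed by a chi-square per degree of freedom of 9.98 to 30.8. All 6 libraries were counted as separate samples, but these values cannot tell separate cultures from separate library preparations.

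Alternatives were RLE, upper-quartile or no scaling factors, removal of GPT, no filter or at least 1 CPM in 3 libraries, DESeq2 1.42.0, limma voom (3.58.1), a test against a 1.2-fold change, a threshold of 0.01, a block on the replicate number, omission of each library in turn, and an offset for transcript length and GC content (mgcv 1.9.3), which 98.9% of tested genes had. The offset combined with the block was added after seeing the data. The members and lists were chosen with earlier results of these data known. Named genes were the members, up to 4 per pathway list and per neighbourhood by adjusted p, and the 3 genes most like EREG and EGFR; others are said to be named after their values were seen. Protein sequences were not used here. Some genes that this rule names are not reported here.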

Additional observations from a re-analysis of the deposited data

How the results depend on the processing

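The 6 members called lower numbered 5 to 8, and those called higher 0, under all 19 alternatives tried; the 5 came from the filter of at least 1 CPM, which left BTC untested. All 170 values of single members were negative, and the 7 that changed their side of the threshold are those given for HBEGF, ERBB2 and ERBB4. The number of all genes called, 4430, was 1424 in the test against a 1.2-fold change, 1172 at a threshold of 0.01, and 1443 to 4907 with a library left out. The pathway genes called, 56, were 23, 23 and 24 to 61 under the same 3 changes. Higher calls over all genes were 3504 with the length and GC correction and 2951 with it and the replicate block together. Same-numbered libraries did not deviate together (correlations of 0.14, -0.28 and -0.08), so the numbers were not taken as pairs. With the replicate block 6 members, 3886 genes and 52 pathway genes were called. The 4 log2 ratios kept their direction. Of 46 other genes followed 17 lost their call under some alternative, and 0 had a call reversed. The log2 fold change of NRG2, which was not called, ran from -0.007 to 0.238. The cause of these changes was not tested. Over 17436 genes, which are not independent, log2 fold changes had a Spearman correlation of 0.31 with GC content and -0.33 with transcript length. The deviation of single libraries from the gene means correlated with GC content most in control replicate 3 (-0.52) and GPT1 replicate 1 (0.47). The other libraries lay between -0.12 and 0.27. Depth limited BTC, with 0 to 3 counts per GPT1 library.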

Other observations

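The genes within 500 kb of ERBB2, a stretch of chromosome 17 that is often co-amplified in tumours, moved in both directions. Of 24 tested, 4 were lower and 4 higher, beside 14.6% and 10.5% of all genes tested. A shift particular to this stretch was not shown. GRB7, given above, fell the most of those named (log2 fold change -1.68 ± 0.23 SE), while its neighbours MIEN1 (0.24 ± 0.12, adjusted p = 0.160) and PGAP3 (0.19 ± 0.12, adjusted p = 0.271) and the cholesterol transporter gene STARD3 (0.25 ± 0.10, adjusted p = 0.091) did not pass, although STARD3 did with the correction for length and GC content (0.24, adjusted p = 0.011). Of the genes for Mediator subunits, MED1 was lower at 78.0 ± 7.62 CPM in the GPT1 libraries and 123 ± 17.1 CPM in the control libraries (-0.66 ± 0.12, adjusted p = 0.0041), and MED24 was higher at 166 ± 10.5 CPM in the GPT1 libraries and 129 ± 9.90 CPM in the control libraries (0.36 ± 0.09, adjusted p = 0.017). The nuclear receptor gene NR1D1 was lower (-0.53 ± 0.14, adjusted p = 0.022). MED24 and NR1D1 did not pass without GPT1 replicate 1, GPT1 replicate 3 or control replicate 1 (adjusted p up to 0.090). MIEN1, PGAP3 and STARD3 were named after their values were seen.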
